A study of Mus musculus with 12 samples.

Results

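The genes described here are 33 genes that drive and mark cell division: the cyclins and their kinases, the replicative helicase, the enzymes that make DNA building blocks and the machinery of mitosis. They were chosen by name, and 32 of the 33 had at least 1 probe set annotated to that gene alone, out of 17097 such genes on the array. The mitotic cyclin gene Ccnb1 had no such probe set, so its expression is not analysed, and it enters only the counts of promoter motifs. Expression was measured on 12 arrays of whole liver from male mice, 3 arrays in each of 4 groups: wild-type mice on a low-fat diet, wild-type mice on a high-fat diet, Pml knockout mice on the low-fat diet and Pml knockout mice on the high-fat diet. The low-fat diet had 10% of its calories from fat and the high-fat diet 60%, both were fed for 20 weeks, and all mice were fasted for 8 h before the liver was taken. The 3 extracts of a group were drawn from 8 mice. The strain, the age and the way in which Pml was knocked out are not given in the sources used here. The labels do not say outright that each extract is its own mouse, so the p-values measure the spread between these extracts.

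Cells enter division when D-type cyclins, bound to Cdk4 or Cdk6, inactivate the retinoblastoma protein and release E2F factors, which switch on cyclin E and the genes of DNA replication. Cyclin A and B with Cdk1 then drive mitosis, with the Aurora and Polo kinases and the spindle checkpoint. Adult hepatocytes rarely divide, but keep the capacity to re-enter the cycle after injury, and cyclin D1 is the classic marker of that re-entry. Several of these genes also have roles outside the cycle, such as Pcna in DNA repair.

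Across all arrays Pml had a log2 signal of 4.92 to 5.40 in wild-type livers and of 3.04 to 3.82 in knockout livers, as the labels have it, although the part of the gene that its probe set covers was not checked. Of 8 hepatocyte markers 7 lay well above the limit used for background below, and the mean of the list was between 10.85 and 11.13 in every array. Kupffer cell and macrophage markers, whose list mean was 6.04 to 6.95 in 10 arrays, were at 4.92 in knockout low-fat replicate 2 and at 5.51 in knockout high-fat replicate 3. Liver endothelial markers were at 6.13 in knockout low-fat replicate 2 and at 6.03 in both knockout high-fat replicates 2 and 3, against 6.57 to 7.07 in the other 9 arrays. In whole liver, fewer cells of a type and less RNA per cell cannot be told apart.

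The mitotic genes gave almost no signal. To judge this, a limit of 4.23 on the log2 scale was set as the 95th percentile of 90 probe sets of olfactory, vomeronasal, taste and trace-amine receptor genes, which liver is not known to use. The mean over all 12 arrays was at or under this limit for 15 of the 32 genes (46.9%), against 42.7% of all 17097 genes. Of the 3 measured mitotic cyclins and their kinase, all 3 were near background, and so were 8 of the 9 mitotic kinases, regulators and markers. By contrast 0 of the 5 D-type cyclins and their kinases and 0 of the 4 enzymes of nucleotide supply were, with 1 of 4 genes of the transition from G1 to S and 3 of 7 genes of the helicase and clamp. The genes nearest to the limit were E2f1, at 4.23 just above it, and Cdk1, at 4.22 just under it. A filter on dim genes used for the tests, which left out the 40% of genes with the lowest mean, was passed by 19 of the 32 genes.

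Probe sets differ in how well they capture a transcript, so a signal near background does not show that the RNA is absent. Pck1, which fasted liver is known to express strongly, had a mean of 2.82 on its probe set. Of the mitotic genes with several probe sets, 4 were near background on each of them: 2 of 2 for the checkpoint kinase gene Bub1, 2 of 2 for Ccna2, 3 of 3 for the topoisomerase gene Top2a and 2 of 2 for Aurkb. Foxm1 had 4, of which 1 was above the limit, and the other mitotic genes had 1 each. Mki67, the gene of the proliferation marker Ki-67, lay between 3.16 and 3.76 over the 12 arrays with a median of 3.46. Top2a lay between 3.25 and 3.65, Ccnb2 between 2.98 and 3.29, and the survivin gene Birc5 between 2.94 and 3.51. All 12 arrays were under the limit for these 4 genes. The same held for Aurka, of the spindle pole kinase, at 3.56 to 4.08, and for Cdc20, an activator of the anaphase-promoting complex, at 3.35 to 3.76. Plk1, the Polo kinase gene, lay at 3.79 to 4.32 and was above the limit in 3 arrays.

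**Figure D1:**
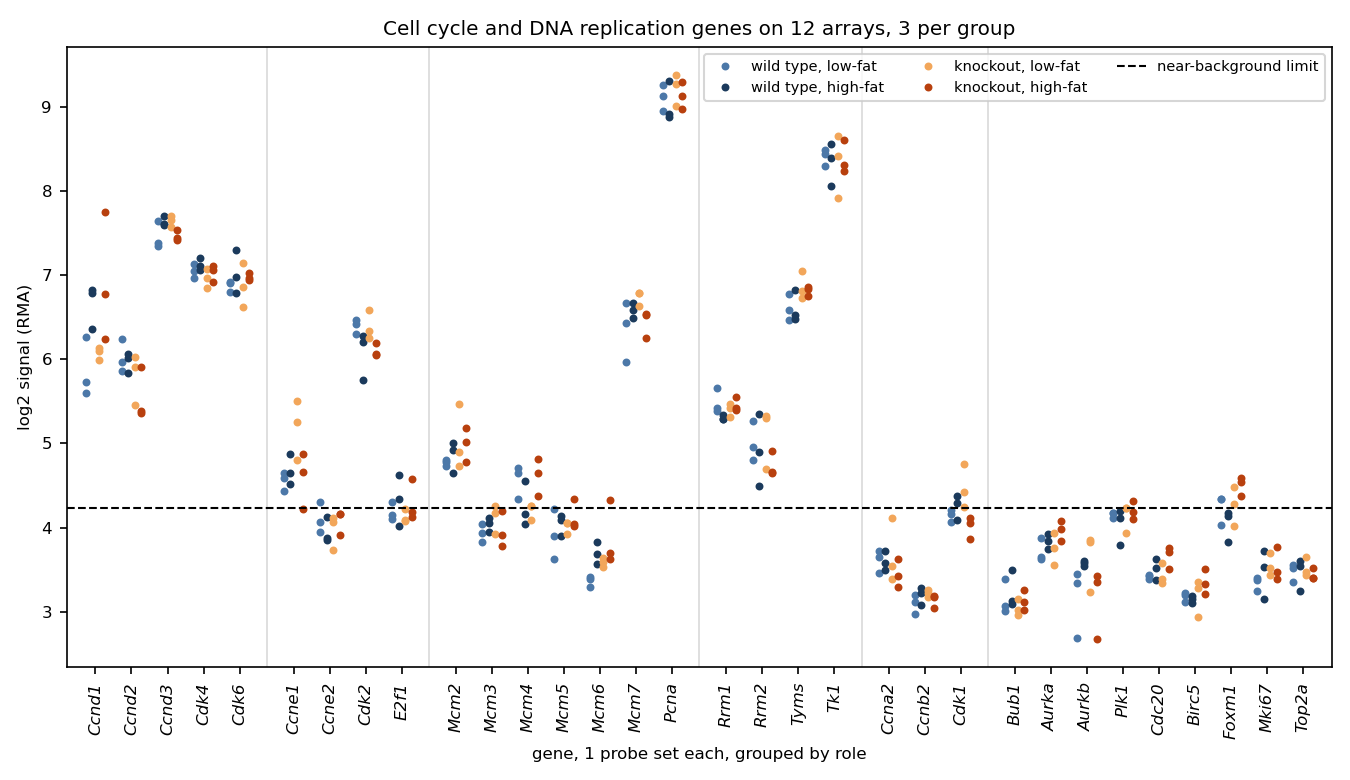
Log2 signal of the 32 measured genes (y axis) in each of the 12 arrays, with 1 probe set per gene, ordered by role along the x axis. Each point is 1 array, coloured by group, and the dashed line is the near-background limit of 4.23. The D-type cyclins, their kinases, Pcna, Tk1 and Tyms lie above the line in all arrays, and most mitotic genes at the right lie below it.

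Regulatory sequence of 4 of these genes is shown because it sets 2 genes near background, Cdk1 and Top2a, beside Ccne1, a little above the limit, and Pcna, well above it. The sequences are the 250 bases before the start of the gene, from RefSeq on GRCm38.p6, written 5′ to 3′ in the direction of transcription. Capitals mark matches on either strand to 3 kinds of motif known from cell cycle promoters: E2F sites (TTTCGCGC, TTTGGCGC, TTCCCGCC or TTCGCGCC, some of which overlap each other), the cell cycle homology region (TTTGAA or TTCGAA) and the CCAAT box (CCAAT). Cdk1, the mitotic kinase, lies at chr10:69352913-69353162 on the - strand. Top2a, which untangles DNA in S phase and mitosis, lies at chr11:99024190-99024439 on the - strand. Pcna, the sliding clamp of DNA polymerase, lies at chr2:132253181-132253430 on the - strand. Ccne1, the gene of cyclin E1, lies at chr7:38107491-38107740 on the - strand.
Cdk1: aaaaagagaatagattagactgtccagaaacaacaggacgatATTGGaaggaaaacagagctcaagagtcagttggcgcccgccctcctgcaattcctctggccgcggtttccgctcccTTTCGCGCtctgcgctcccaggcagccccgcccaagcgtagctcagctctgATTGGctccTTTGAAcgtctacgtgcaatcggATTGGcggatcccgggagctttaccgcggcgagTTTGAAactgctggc
Top2a: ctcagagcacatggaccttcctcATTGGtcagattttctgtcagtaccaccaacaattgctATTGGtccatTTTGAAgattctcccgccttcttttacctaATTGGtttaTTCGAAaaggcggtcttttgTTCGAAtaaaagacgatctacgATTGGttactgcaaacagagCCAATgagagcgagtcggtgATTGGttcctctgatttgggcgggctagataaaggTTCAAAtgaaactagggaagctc
Pcna: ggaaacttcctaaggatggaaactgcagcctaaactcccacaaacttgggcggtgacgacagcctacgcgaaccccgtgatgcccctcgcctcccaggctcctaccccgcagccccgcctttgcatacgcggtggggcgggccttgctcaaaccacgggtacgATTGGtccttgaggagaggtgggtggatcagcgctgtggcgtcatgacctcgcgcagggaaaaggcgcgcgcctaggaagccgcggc
Ccne1: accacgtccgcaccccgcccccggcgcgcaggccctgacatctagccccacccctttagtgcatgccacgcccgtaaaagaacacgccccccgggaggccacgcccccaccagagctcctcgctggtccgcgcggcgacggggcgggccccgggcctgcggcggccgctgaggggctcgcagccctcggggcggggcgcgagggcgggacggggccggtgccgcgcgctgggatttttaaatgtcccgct

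Top2a had 6 CCAAT boxes and 4 cell cycle homology motifs in these 250 bases. Cdk1 had 3 CCAAT boxes, 2 cell cycle homology motifs and 1 E2F site. Pcna had 1 CCAAT box, and Ccne1 had none of these letters in this window. Promoters were found for 26 of the 33 genes, in 28 windows. A CCAAT box was present in 71.4% of these windows against 33.9% of 32851 promoter windows of all genes, a cell cycle homology motif in 25.0% against 17.1%, and an E2F site in 14.3% against 2.79%. The cell cycle homology motif was found in 7 genes, of which Ccnb2, Cdk1, Cdc20, Mki67 and Top2a were near background in these livers and Mcm2 and Mcm7 were not. E2F sites were found in Mcm5, Mcm6, Rrm1 and Cdk1. A match describes the letters only and was not set against binding of any factor. No promoter entry was used for Ccnd1.

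Cyclin D1, which couples growth signals to entry into the cycle, was the 1 gene of the set that passed a test. Averaged over both genotypes, Ccnd1 rose 1.76-fold on the high-fat diet (log2 difference 0.82, SE 0.212, 95% interval 0.36 to 1.28, limma adjusted p = 0.0475). In this comparison 4.56% of all genes tested passed and 2.57% passed as higher, so 1 of 19 tested genes of the set is near that background. At an unadjusted p under 0.05 there were 2 of the 19, against 19.7% of all genes. In low-fat livers of wild-type mice Ccnd1 had log2 signals of 5.59, 6.26 and 5.73 (5.86 ± 0.35, SD, n = 3). On the high-fat diet the wild-type livers had 6.78, 6.36 and 6.82 (6.65 ± 0.25). Low-fat knockout livers had 6.14, 6.09 and 5.99 (6.07 ± 0.08), and high-fat knockout livers had 6.78, 7.74 and 6.24 (6.92 ± 0.76). On the probe set used, every high-fat liver lay above every low-fat liver of its own genotype. Across genotypes, however, knockout high-fat replicate 3, at 6.24, lay just under wild-type low-fat replicate 2, at 6.26.

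The difference was 0.79 (95% interval 0.14 to 1.44) in wild types and 0.85 (0.20 to 1.5) in knockouts, and neither passed alone (limma adjusted p = 0.461 and 0.145). Without knockout high-fat replicate 2, at 7.74, the knockout difference was 0.43. The difference between these diet effects was 0.05 with a 95% interval from -0.86 to 0.97, which is too wide to say that the genotypes respond alike. The other 2 Ccnd1 probe sets, both above the limit, had mean diet differences of 0.52 and 0.75. On the former the diets overlapped in both genotypes, and on the latter in knockouts only. Averaging the 3 probe sets gave 0.70 and ended the call (adjusted p = 0.0942). The call was also lost without any filter on dim genes (adjusted p = 0.0553), without the variance trend (0.0602) and in 10 of 12 fits that left out an array, where the difference ranged from 0.61, without knockout high-fat replicate 2, to 0.99, without knockout high-fat replicate 3. It was kept when either knockout high-fat replicate 3 or wild-type low-fat replicate 2 was left out. With the 2 arrays lowest in macrophage markers left out it was 0.99 (adjusted p = 0.0309), and with the 3 arrays lowest in endothelial markers left out 0.75 (adjusted p = 0.089). The mean of the macrophage markers was also higher on the high-fat diet in wild types, without overlap, at 6.04 to 6.27 on the low-fat and 6.37 to 6.49 on the high-fat diet, while in knockouts it spanned 4.92 to 6.70 and 5.51 to 6.95. Neutrophil markers, near the limit, were at 3.94 to 4.15 and 4.15 to 4.19 in wild types, and at 4.12 to 4.24 and 4.24 to 4.39 in knockouts. The part of these cells in the Ccnd1 values was not tested.

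**Figure D2:**
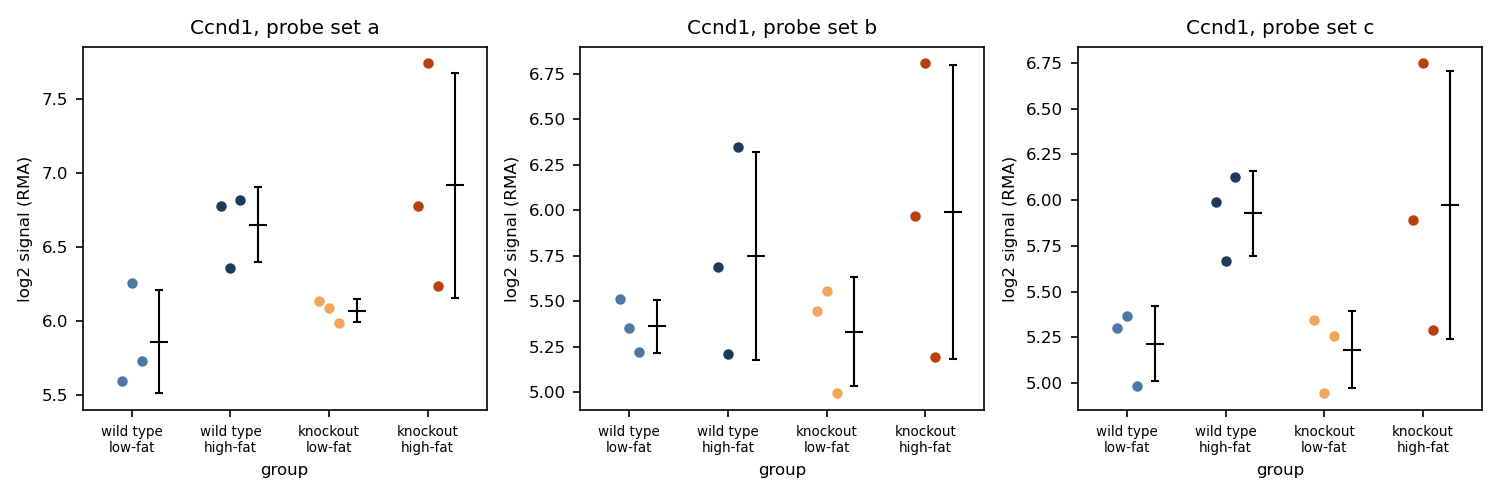
Log2 signal of Ccnd1 (y axis) by group (x axis) for its 3 probe sets, of which a is the one used in the tests. Points are arrays, and the bar beside them is the mean with SD (n = 3). In probe set a the high-fat livers of each genotype lie above the low-fat livers of that genotype, with knockout high-fat replicate 2 at 7.74.

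The other D-type cyclins and their kinases had smaller differences. Ccnd2, the gene of the related cyclin D2, had log2 signals of 5.96, 6.24 and 5.86 in wild-type low-fat and 6.06, 5.84 and 6.02 in wild-type high-fat livers. Knockout livers had 5.91, 5.45 and 6.03 with the low-fat and 5.91, 5.39 and 5.36 with the high-fat diet. The 3 low values are those of the 3 arrays with the lowest endothelial markers, and all 9 other arrays were at 5.84 or above. Knockout minus wild type averaged -0.32 over both diets (SE 0.128, limma adjusted p = 0.665) and was -0.06 without those 3 arrays, which leaves 1 knockout high-fat array. A second Ccnd2 probe set had -0.35, while the other 4 ranged from -0.14 to 0.10. The part of endothelial cells in these values was not tested further.

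Ccnd3, the gene of cyclin D3, Cdk4 and Cdk6 were above the limit in all 12 arrays. Their signals spanned 7.35 to 7.70, 6.84 to 7.2 and 6.62 to 7.29. The Cdk4 probe set used is of a kind that can bind more than 1 transcript, and its other probe sets had means of 6.27 and 5.93. Group means of Ccnd3 were 7.46 ± 0.16 and 7.63 ± 0.06 in low-fat and high-fat wild types, and 7.64 ± 0.06 and 7.46 ± 0.06 in low-fat and high-fat knockouts. Its diet difference was thus 0.17 in wild types and -0.18 in knockouts, with an interaction of -0.36 that did not pass (limma adjusted p = 0.827). On the probe sets used, the kinase genes differed by at most 0.14 in size in each of the 7 comparisons. A dimmer Cdk4 probe set, still above the limit, had a diet difference of 0.25 in knockouts and an interaction of 0.34, and a dimmer Cdk6 probe set had 0.19 in knockouts between diets.

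Between the genotypes on the low-fat diet 0 of the 19 tested genes passed with limma and 4 had an unadjusted p under 0.05, against 0.00975% and 8.72% of all genes. Cyclin E1, the partner of Cdk2 at the start of S phase, had log2 signals of 4.65, 4.58 and 4.44 in wild-type low-fat livers against 5.25, 5.50 and 4.80 in knockout low-fat livers. On the high-fat diet Ccne1 was at 4.65, 4.87 and 4.52 in wild types and at 4.22, 4.88 and 4.66 in knockouts. The 3 knockout low-fat livers were above all wild-type low-fat livers, and the high-fat groups overlapped. The difference was 0.63 on the low-fat diet (95% interval 0.21 to 1.04, limma adjusted p = 0.431) and -0.10 on the high-fat diet (-0.52 to 0.32).

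Cdk1, the kinase of mitosis, was close to the limit throughout. It had 4.16, 4.06 and 4.21 in wild-type low-fat and 4.42, 4.76 and 4.24 in knockout low-fat livers, again without overlap. The high-fat livers had 4.38, 4.09 and 4.29 in wild types and 3.86, 4.05 and 4.12 in knockouts. Within the knockout, the high-fat diet went with lower values of both genes, by -0.60 for Ccne1 and -0.46 for Cdk1 (limma adjusted p = 0.117 and 0.093). Without knockout low-fat replicate 3 these were -0.79 and -0.58 and passed (adjusted p = 0.0346 and 0.0408). Each passed in only this 1 of 21 alternative fits. With another single array left out they shrank to as little as -0.42 and -0.32. In the fit of all arrays 0 of the 19 tested genes passed between diets in knockout livers with limma, and 4 had an unadjusted p under 0.05, against 3.03% and 18.3% of all genes.

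On the probe sets used, the highest Ccne1, Cdk1, Mcm2 and Ccna2 values were in knockout low-fat replicate 2, at 5.50, 4.76, 5.47 and 4.12. Ccna2 was under the limit in every array. On the second Ccna2 probe set the same liver had the lowest value, 3.15. On the second Mcm2 probe set it had 4.75, under wild-type high-fat replicate 3 at 5.08. It also had the lowest Tk1 and Ccne2 values, at 7.92 and 3.74. Knockout low-fat replicate 2 is the liver with the lowest macrophage markers. Without that liver the Ccne1 and Cdk1 differences between genotypes on the low-fat diet were 0.47 and 0.18. The part of this liver's cell makeup in the values was not tested.

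Mcm7 and Mcm4, which code for subunits of the same helicase, had opposite patterns. Mcm7 had 6.43, 6.67 and 5.97 in wild-type low-fat livers and 6.79, 6.63 and 6.78 in knockout low-fat livers, a difference of 0.38 (limma adjusted p = 0.548). The lowest of these arrays was wild-type low-fat replicate 3, and without it the difference was 0.18. That array also had the largest 3′ minus 5′ difference of the actin control probe sets, a measure of RNA quality. It was 1.85 on the log2 scale, against 1.26 to 1.64 in the other arrays. The part of RNA quality in the Mcm7 values was not tested. The second Mcm7 probe set had 0.31. Mcm4 had 4.65, 4.71 and 4.34 in wild-type low-fat and 4.26, 4.10 and 4.26 in knockout low-fat livers, a difference of -0.36 (adjusted p = 0.558) with no overlap between the groups. On the high-fat diet Mcm4 had 4.17, 4.04 and 4.55 in wild types and 4.65, 4.81 and 4.37 in knockouts, a difference of 0.36. The diet effect of Mcm4 differed between the genotypes by 0.72 (95% interval 0.23 to 1.20, limma adjusted p = 0.802), and that of Mcm7 by -0.51 (adjusted p = 0.844), or by -0.32 without wild-type low-fat replicate 3.

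The remaining helicase genes gave weaker signals than Mcm7. Mcm3, Mcm5 and Mcm6 were near background, with means from 3.63 to 4.03, and Mcm2 was above the limit at 4.65 to 5.47. Mcm6 had 3.40, 3.42 and 3.29 in wild-type low-fat and 3.68, 3.56 and 3.83 in wild-type high-fat livers, and 3.53, 3.59 and 3.64 against 3.69, 4.33 and 3.63 in knockout livers. Its mean diet difference was 0.31 and it was left out of the test as dim. In the fit without a filter it did not pass (adjusted p = 0.173).

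Pcna, Tk1 and Tyms, by contrast, had clear signals, and none passed a test. Pcna had 9.12, 9.25 and 8.95 in wild-type low-fat, 9.30, 8.91 and 8.87 in wild-type high-fat, 9.37, 9.0 and 9.27 in knockout low-fat and 9.29, 9.12 and 8.98 in knockout high-fat livers. All 4 groups overlapped, and the mean genotype difference was 0.10 with a 95% interval from -0.10 to 0.31. Tk1, the thymidine kinase of the salvage pathway, lay between 7.92 and 8.65, with group means from 8.33 to 8.40. Tyms, the enzyme that makes thymidylate, had 6.47, 6.77 and 6.58 in wild-type low-fat, 6.82, 6.48 and 6.53 in wild-type high-fat, 7.05, 6.72 and 6.81 in knockout low-fat and 6.83, 6.86 and 6.75 in knockout high-fat livers. Knockout minus wild type was 0.23 over both diets (SE 0.0887, limma adjusted p = 0.653). In this mean of both diets 0 of 19 tested genes passed with limma and 3 had an unadjusted p under 0.05, against 0.0195% and 7.26% of all genes. The other 4 Tyms probe sets were near background, with means from 2.93 to 3.24 and differences from -0.07 to 0.04, so the signal rests on 1 probe set, of a kind that can bind more than 1 transcript.

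The ribonucleotide reductase genes Rrm1 and Rrm2, which turn ribonucleotides into DNA precursors, were above the limit in all arrays, at 5.28 to 5.65 and 4.49 to 5.35. Their mean genotype differences were 0.03 and -0.03 and their mean diet differences -0.06 and -0.23, none past the threshold.

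**Figure D3:**
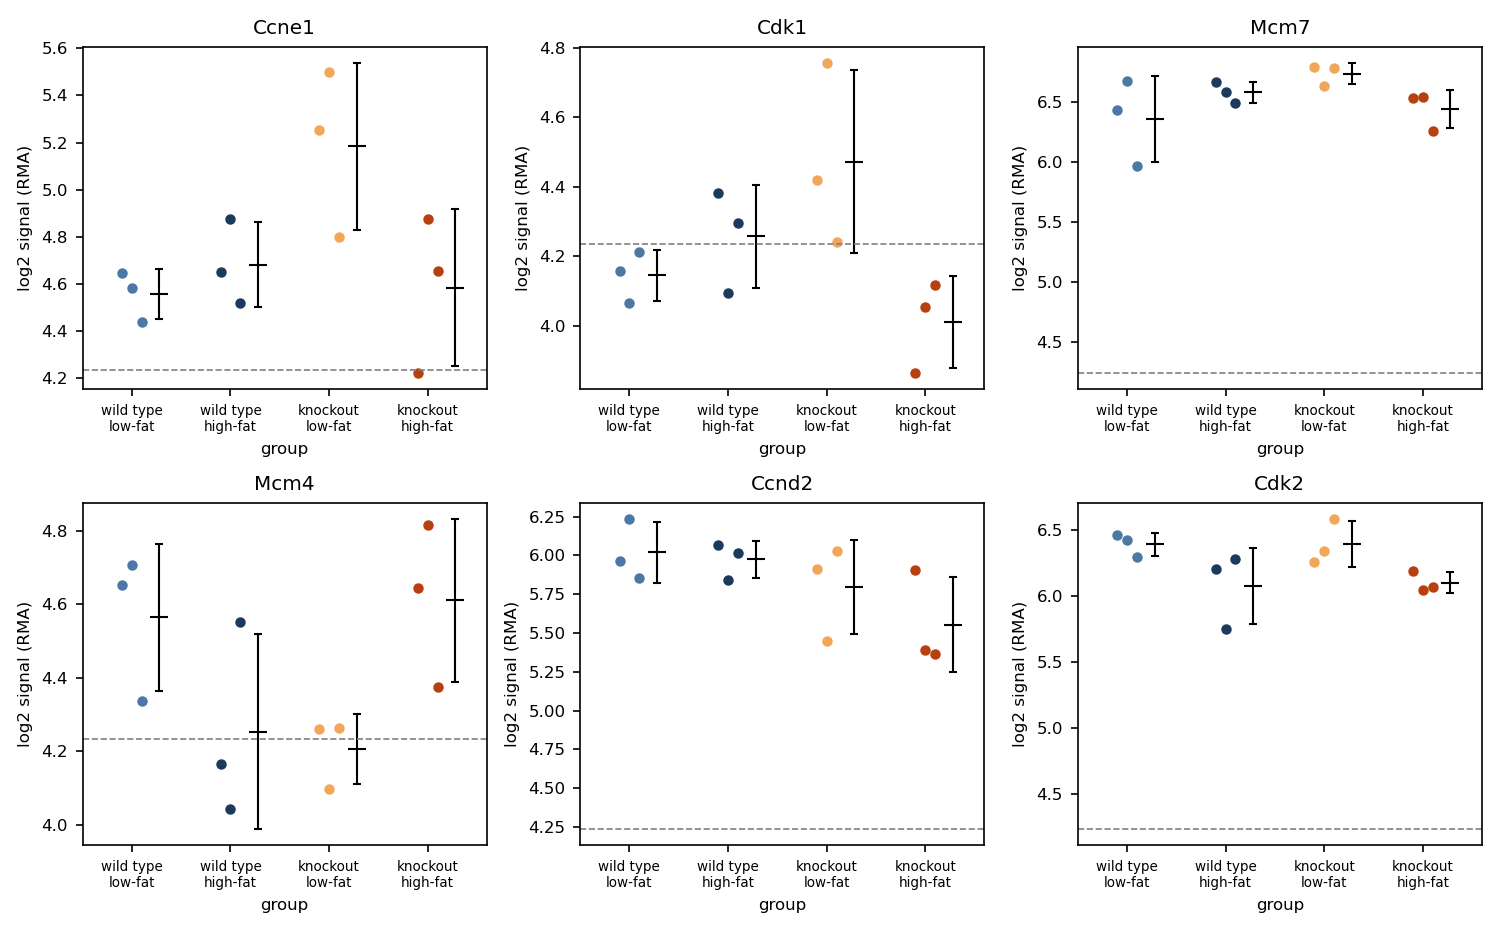
Log2 signal (y axis, a separate range in each panel) of Ccne1, Cdk1, Mcm7, Mcm4, Ccnd2 and Cdk2 by group (x axis). Points are arrays, the bar beside them is the mean with SD (n = 3), and the dashed line is the near-background limit of 4.23. Knockout low-fat livers have the highest group mean for Ccne1 (5.18), Cdk1 (4.47) and Mcm7 (6.73), and the high-fat groups have the lower means for Cdk2 (6.08 and 6.10).

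Cdk2, the kinase of cyclins E and A, was lower on the high-fat diet in both genotypes without passing. It had 6.46, 6.42 and 6.30 in wild-type low-fat and 6.21, 5.75 and 6.28 in wild-type high-fat livers, and 6.25, 6.34 and 6.59 against 6.19, 6.05 and 6.07 in knockout livers. The groups did not overlap within either genotype. The mean difference was -0.30 (95% interval -0.52 to -0.08, limma adjusted p = 0.109). Cyclin E2 was near background in all 4 groups, and E2f1, the founding E2F factor, lay between 4.02 and 4.62 with group means from 4.13 to 4.33.

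Among the mitotic regulators Foxm1, a factor that switches on mitotic genes, was the 1 gene above the limit, at a mean of 4.26. It had 4.03, 4.34 and 4.35 in wild-type low-fat and 4.18, 3.83 and 4.14 in wild-type high-fat livers. Low-fat knockout livers had 4.49, 4.02 and 4.28 and high-fat knockout livers 4.59, 4.37 and 4.55, where all 3 lay above the wild-type livers. The high-fat difference between genotypes was 0.45 (95% interval 0.14 to 0.77, limma adjusted p = 0.996), and the other 3 Foxm1 probe sets, all near background, had 0.09 to 0.20. On this diet 0 of 19 tested genes passed with limma and 3 had an unadjusted p under 0.05, against 0.00975% and 4.46% of all genes. Aurkb, the Aurora kinase of the chromosomal passenger complex, had 2.69, 3.45 and 3.34 in wild-type low-fat, 3.6, 3.58 and 3.54 in wild-type high-fat, 3.86, 3.83 and 3.24 in knockout low-fat and 2.68, 3.43 and 3.35 in knockout high-fat livers. Its interaction of -0.90 was the largest in size of the set, but all values were under the limit, the gene was left out of the test as dim, and its second probe set had -0.02.

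Over the whole set the median differences were small, and the 4 given here lay a little above those of all genes. Of the 32 genes, 23 were higher in knockout livers on the low-fat diet, with a median log2 difference of 0.06 against 0.02 over all 17097 genes, of which 55.9% were higher. On the high-fat diet 17 were higher, against 52.8% of all genes, with a median of 0.03 against 0.01. The high-fat minus low-fat medians were 0.09 in wild types and 0.02 in knockouts, against 0.01 and -0.01 over all genes. Groups that did not overlap were found for 5 of the 32 genes between genotypes on the low-fat diet, where 11.8% of all genes had them, and for 5 on the high-fat diet, where 11.2% had. Between diets they were found for 5 genes in wild-type livers, against 14% of all genes, and for 6 in knockout livers, against 17.3%. In wild-type livers 0 of 19 tested genes passed between diets with limma and 2 had an unadjusted p under 0.05, against 0.175% and 8.82% of all genes. For the interaction of genotype and diet 0 of 19 passed with limma and 5 had an unadjusted p under 0.05, against 0% and 5.7% of all genes. Those 5 are a larger share of the tested set than of all genes, and none of them passed. The comparisons share groups, so they are not independent of each other.

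The precision limits what could be seen. In a comparison of 3 with 3 arrays the 95% interval of a tested gene of the set reached 0.32 to either side on the log2 scale at the median, from 0.21 for the narrowest, that of Ccnd3, to 0.65 for the widest, that of Ccnd1. A p that missed the threshold does not show that a gene was the same in both groups.

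**Figure D4:**
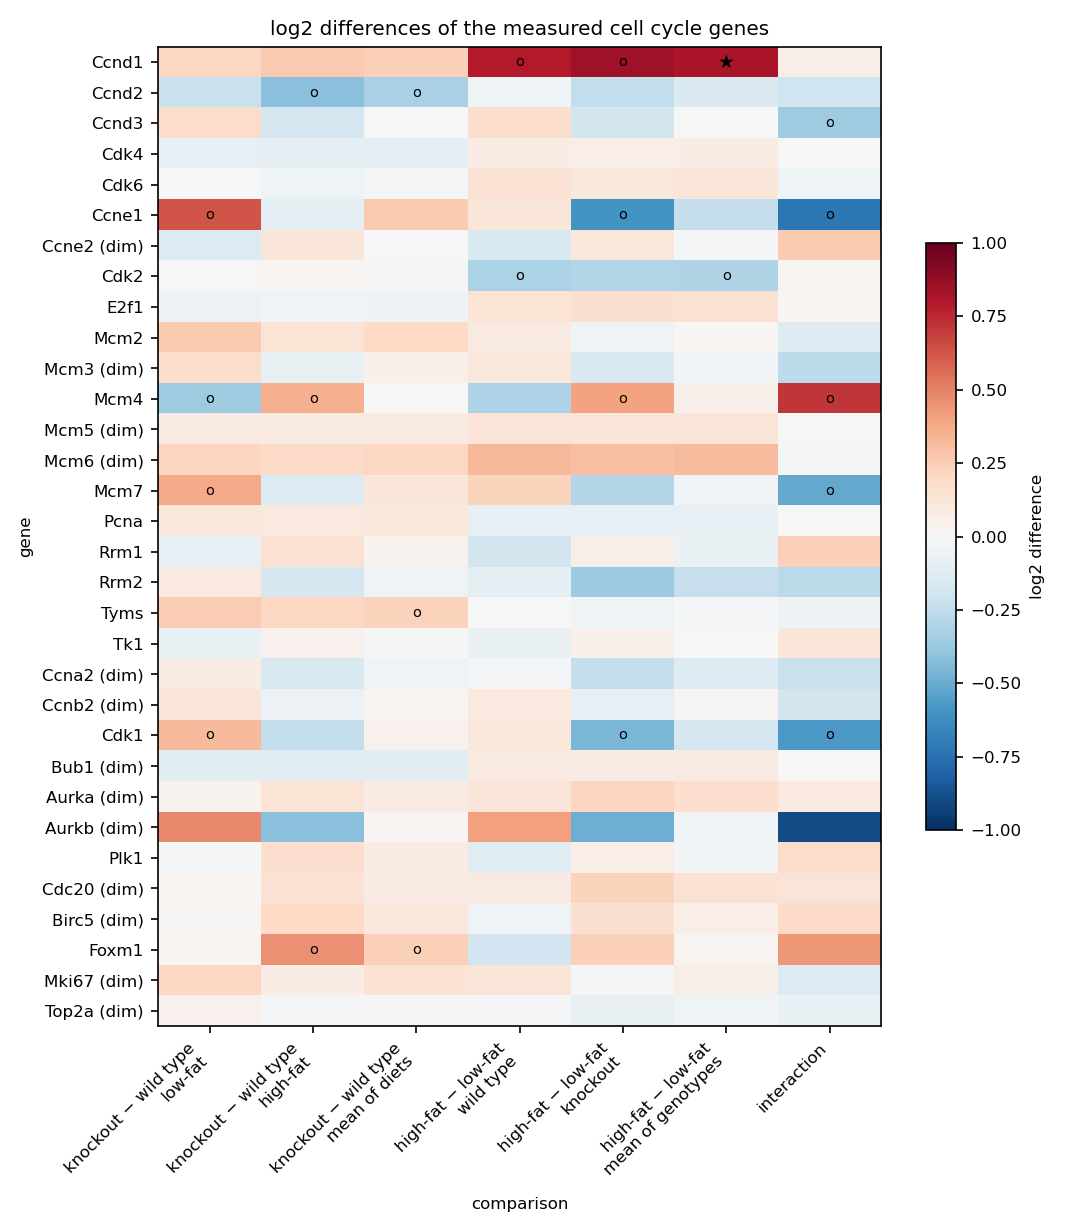
Log2 difference (colour, from -1 to 1) of each of the 32 genes (rows) in the 7 comparisons (columns). The star marks the 1 gene past an adjusted p of 0.05, Ccnd1 between the diets averaged over genotypes at 0.82, circles mark tested genes with an unadjusted p under 0.05, and "dim" marks the 13 genes left out of the tests. Most other cells are pale, with differences near 0.

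Other genes of the cycle were taken from 6 lists. Of 22 measured cyclin-dependent kinase inhibitors and other brakes, 18 were tested. In the mean of both diets 1 of them was lower in knockout livers (0.0195% of all genes were), Ccng1, a cyclin induced by p53, with low-fat and high-fat group means of 8.25 and 8.26 in wild types and of 7.74 and 7.76 in knockouts (log2 difference -0.50, SE 0.0693, limma adjusted p = 0.0428). Cdkn1a, the p21 inhibitor, had -0.99 (SE 0.319, adjusted p = 0.602), with means of 5.78 and 5.80 in wild types and of 4.83 and 4.77 in knockouts. The retinoblastoma gene Rb1, the target of D-type cyclin kinases, was lower on the high-fat diet in knockout livers (log2 difference -0.57, SE 0.141, limma adjusted p = 0.0498), with group means of 7.02 and 6.45, and had 0.02 in wild-type livers. In the knockout 1.28% of all genes passed as lower and 1.75% as higher. The difference of these diet effects did not pass (limma adjusted p = 0.827). Calls of genes outside the set, here Ccng1 and Rb1 and below Shmt1 and Shmt2, were not followed under the alternative fits given at the end. Counts of all genes that passed ranged there from 0 to 9 between genotypes in the mean of both diets. Between diets in knockout livers they ranged from 17 to 461.

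In the list of nucleotide supply, 2 of 18 tested genes were higher on the high-fat diet in knockout livers, against 1.75% of all genes, and the same 2 in the mean of both genotypes, against 2.57%. Shmt1 and Shmt2 are the serine hydroxymethyltransferases that feed one-carbon units to thymidylate. They had log2 differences of 0.61 and 0.40 in knockout livers (limma adjusted p = 0.0118 and 0.0272), 0.13 and 0.17 in wild-type livers, and 0.37 and 0.29 on average (adjusted p = 0.0136 and 0.0167). Of 20 measured genes of this list 16 were higher in the mean diet comparison, against 51.4% of all genes. The median was 0.11 against 0.003 over all genes. The list was chosen with earlier results of these data known, so these shares describe the listed genes and are no test of nucleotide supply. Umps, of pyrimidine synthesis, had the largest mean genotype difference of the list, 0.26 (adjusted p = 0.596), and Shmt2 the next, -0.18 (adjusted p = 0.602).

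Of 38 measured genes of origin licensing and the replication fork, 13 were near background and 0 of 26 tested passed in any of the 7 comparisons with limma. The largest mean genotype difference was 0.35 for Rfc3, of the clamp loader, with means of 5.37 and 5.24 in wild types and of 5.85 and 5.47 in knockouts, and the next was 0.29 for the dim flap endonuclease gene Fen1. Of 37 measured genes of mitosis and the spindle checkpoint, 28 were near background, and 0 of 14 tested passed. Cks1b, a small subunit of cyclin-dependent kinases, had a mean diet difference of -0.47 that just missed the threshold (adjusted p = 0.0502) and a mean genotype difference of 0.42 (adjusted p = 0.596). Its group means were 7.31 and 7.03 in wild types and 7.91 and 7.26 in knockouts. Mad1l1, a dim checkpoint gene, had -0.38. In the E2F list 0 of 9 tested genes passed, with Myc at -0.31 and Mycn at 0.22 between genotypes. Among other cyclins and kinases 0 of 21 tested genes passed, with Cdk18 at -0.20 and Cdk19 at 0.16.

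**Figure D5:**
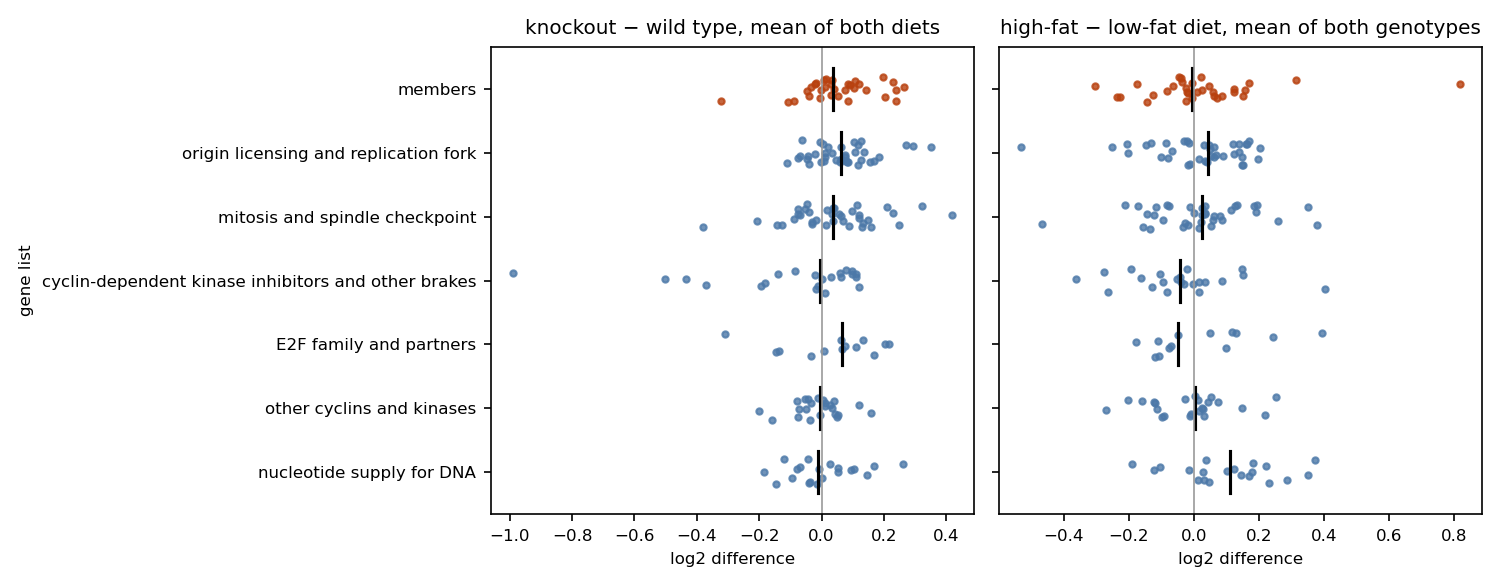
Log2 difference (x axis) of each measured gene of the set (red-brown) and of 6 related lists (blue, rows), for knockout minus wild type averaged over diets (left) and high-fat minus low-fat diet averaged over genotypes (right). Points are genes, moved up or down at random for legibility, and the black bar is the median of a row. Ccnd1 stands apart in the right panel at 0.82, and Cdkn1a in the left at -0.99.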

How the data were processed

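Labelled RNA of 12 liver extracts was hybridised to Affymetrix-type arrays of perfect-match probes per the labels' protocols. The authors deposited log2 values for 45141 probe sets, made with RMA (named in the submitters' processing notes, with no version). RMA brings arrays to a shared distribution and compresses changes of dim probe sets. Array medians lay between 3.94 and 4.00.

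Control probe sets (104) and those with several genes (551) or none (15588) were left out. The probe set with the highest mean stood for a gene, and the dimmest 40% of 17097 genes were not tested, which left 10258. The model was limma 3.58.1 (R 4.3.3) with 4 group means over all 12 arrays with a variance trend, with Benjamini-Hochberg adjustment over the genes tested in each of 7 comparisons and a threshold of 0.05. Values after ± are SD. The fit was tested on simulated data.

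The genes, lists and motifs were chosen with earlier results of these data known. Arrays are given for genes that passed, for the 10 genes with the smallest p in the fit without a filter, and for Pcna. Mcm7 and the Mki67, Top2a, Ccnb2 and Birc5 ranges were added after their values were seen. From each list, genes that passed and the 2 with the largest mean genotype difference are named; Cks1b's diet value was added after it was seen.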

Additional observations from a re-analysis of the deposited data

How the results depend on the processing

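The counts of genes of the set that passed kept their value, 0, under every alternative run for the 3 comparisons of genotypes, for the diets in wild-type livers and for the interaction. For the diets in knockout livers the count was 0, and 0 to 2 when an array was left out. For the mean diet comparison the count of 1, Ccnd1, was 0 without a filter on dim genes, 0 when the probe sets of a gene were averaged, 0 without the variance trend and 0 without the 3 arrays with the lowest endothelial markers, and 0 to 1 when an array was left out; the cause was not tested. It stayed at 1 with quantile normalization, median centring, a 60% filter, the replicate block (adjusted p = 0.0455) and when the 2 arrays lowest in macrophage markers were left out. Both fits without arrays of low markers were chosen after seeing the data.

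The alternatives also covered 23 differences of tested genes of the set, those with an unadjusted p under 0.05 in the fit without a filter. Their 481 values under alternatives included 0 that changed sign, 2 that newly passed and 14 in which Ccnd1 no longer passed. Differences picked for a small p are likely to keep their sign in refits of the same arrays, so the signs are no test of them. For each replicate number 2 of 6 pairs of extracts had deviations that correlated over 0.1 (these pairs spanned -0.17 to 0.39). Extracts of different numbers were not compared, so this cannot tell whether extracts of the same number belong together. The replicate block is a check of a shared number only, and it changed no call for the set. Fits of 2 groups alone could not be made for the means and the interaction. All genes that passed numbered 311 between diets in knockout livers and 17 to 461 under alternatives, 468 and 62 to 606 in the mean of genotypes, and 18 and 5 to 39 in wild-type livers. Between genotypes they numbered 1 on the low-fat diet (0 to 4), 1 on the high-fat diet (0 to 9) and 2 in the mean (0 to 9), and for the interaction 0 (0 to 4). The number of genes near background, 15, was 21 at the 99th percentile of the receptor probe sets and 10 with the median of all probe sets as the limit. Signal over background is the limit for the mitotic genes.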
